A study of Mus musculus with 2 samples.

Results

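The BCL2 family genes described here are the 10 symbols Bcl2, Bcl2l1, Bcl2a1b, Bcl2a1d, Mcl1, Bax, Bak1, Bcl2l11, Bbc3 and Pmaip1, chosen by name, and all 10 had a row among the 20034 genes of the table. They were followed in single mouse induced macrophages (iMac), cells that the series title describes as fibroblasts reprogrammed with c-Myc alone. By genotype the cells were wild type. They were lifted with EDTA in PBS and run on a DNBelab C4 droplet system, and a cDNA and an oligo library are labelled. Barcode names carry no sample, so the counts were treated as 1 sample of 1 group, with no replicate and no untreated cells. No test between conditions was therefore possible, and every interval covers counting error only, at the 95% level.

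Proteins of the BCL2 family decide whether the outer mitochondrial membrane is opened, the step that frees cytochrome c and starts the intrinsic pathway of apoptosis. The effectors BAX and BAK1 open the membrane, anti-apoptotic proteins such as BCL2, BCL-XL and MCL1 hold them in check, and BH3-only proteins such as BIM, PUMA and NOXA bind the anti-apoptotic proteins or activate the effectors. Myc is known both to drive growth and to sensitise cells to apoptosis, in part through p53, whose classical target Cdkn1a encodes the cell cycle inhibitor p21. How far the members vary with Myc and Cdkn1a between cells was the question asked of these data.

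After filtering, 6751 of 6837 barcodes remained, with 1001 to 192369 counts per cell and a median of 17178, and no barcode name occurred more than once. All 16 macrophage markers reached 10 CPM (counts per 1000000), led by Tyrobp at 5699.7 CPM. The 5 of 12 fibroblast markers with a row lay between 0.00624 and 1.70 CPM, and the 9 of 13 markers of other leukocytes with a row reached at most 4.97 CPM. No cell type known to lack the members was found, so the share of cells with a count that free RNA alone would give was not estimated.

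Bcl2a1b and Bcl2a1d are near-identical copies on chromosome 9, and their sequences bear on how their counts can be read. Over 516 coding bases they differ at 6 positions, and Bcl2a1b and Bcl2a1a, a copy outside the members, at 11. The first 120 coding bases, from GENCODE M21 transcripts, hold 7 positions at which the 3 copies are not all alike, shown as capitals.
Bcl2a1b: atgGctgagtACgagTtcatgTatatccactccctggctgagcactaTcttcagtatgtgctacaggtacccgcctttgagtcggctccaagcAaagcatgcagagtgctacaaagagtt
Bcl2a1d: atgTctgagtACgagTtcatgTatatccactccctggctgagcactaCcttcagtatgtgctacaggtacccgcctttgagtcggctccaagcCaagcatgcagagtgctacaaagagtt
Bcl2a1a: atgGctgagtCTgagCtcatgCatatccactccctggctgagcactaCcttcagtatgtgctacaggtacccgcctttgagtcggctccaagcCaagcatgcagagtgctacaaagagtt
Of all 100-base windows along the transcript, 31.1% in Bcl2a1b and 54.7% in Bcl2a1d occur letter for letter in another copy. How reads that match several copies were counted is not given in the sources used here, so the split of counts among Bcl2a1b, Bcl2a1d and Bcl2a1a is uncertain.

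Promoter letters are shown for Bax, the most abundant member, for Bbc3, which varied most with Cdkn1a, and for Cdkn1a itself. Each is the 250 bases before a RefSeq start site (GRCm38.p6), with matches to the E-box CACGTG and to the p53 decamer in capitals, both strands searched. Only start sites with such a match before them are shown. Bax lies at chr7:45466899-45467148 on the minus strand, Bbc3 at chr7:16310181-16310430 and Cdkn1a at chr17:29090729-29090978, both on the plus strand.
Bax: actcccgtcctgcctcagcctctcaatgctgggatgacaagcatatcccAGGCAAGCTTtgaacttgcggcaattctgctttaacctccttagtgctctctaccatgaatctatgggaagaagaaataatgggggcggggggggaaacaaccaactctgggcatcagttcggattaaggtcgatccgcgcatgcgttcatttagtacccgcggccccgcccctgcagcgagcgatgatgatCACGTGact
Bbc3: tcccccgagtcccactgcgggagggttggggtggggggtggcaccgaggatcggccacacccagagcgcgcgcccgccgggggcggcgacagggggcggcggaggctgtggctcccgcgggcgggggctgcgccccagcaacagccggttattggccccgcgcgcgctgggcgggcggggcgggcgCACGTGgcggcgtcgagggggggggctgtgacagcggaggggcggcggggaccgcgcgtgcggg
Cdkn1a: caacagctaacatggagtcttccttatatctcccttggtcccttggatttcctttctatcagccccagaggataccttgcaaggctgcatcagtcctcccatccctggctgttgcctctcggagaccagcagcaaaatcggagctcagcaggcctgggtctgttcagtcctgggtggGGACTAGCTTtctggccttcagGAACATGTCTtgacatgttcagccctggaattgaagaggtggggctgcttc
The Bax decamer begins 201 bases before the start and its E-box 9 bases before it, the Bbc3 E-box 64 bases before, and the Cdkn1a decamers 73 and 51 bases before. In the full windows, which add 50 bases after the start, an E-box was found in 2 of 14 windows of 9 members, against 7.15% of 32851 windows of all genes. The p53 decamer was found in 1 of the 14, against 8.36% of all windows, and these matches are letters only. Neither match occurred in the other full windows of Bbc3 (chr7:16309333-16309632 and chr7:16310011-16310310) and of Cdkn1a (chr17:29093519-29093818).

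The effector Bax stood far above the other members, and the anti-apoptotic genes were led by Mcl1. Bax, which encodes a membrane-opening effector (chromosome 7, 45461697 to 45466898, minus strand, GRCm38), had 74988 counts and a level of 467.6 CPM (interval 464 to 471). It was detected, with at least 1 count, in 90.02% of cells (89.3 to 90.7%). Bak1, the other effector (chromosome 17, 27019810 to 27029009, minus strand), stood at 95.9 CPM (94.4 to 97.4) and was detected in 64.8% of cells. In the table, 8 of the 10 members reached 10 CPM, against 33.2% of all genes with a row, with Bcl2 and Pmaip1 below.

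Among the anti-apoptotic members, Mcl1, whose short-lived protein is needed for survival of many myeloid cells, had a level of 136.8 CPM (135 to 139) and was detected in 70.6% of cells (chromosome 3, 95658788 to 95663176, plus strand). Bcl2a1b, one of the A1 genes, stood at 74.7 CPM (73.3 to 76.0), Bcl2a1d at 25.7 CPM (24.9 to 26.5), and Bcl2l1, which encodes BCL-XL, at 24.6 CPM (23.9 to 25.4). Bcl2l1 lies on chromosome 2 from 152780668 to 152831728. Bcl2, the founding gene of the family, was the lowest of all members at 3.99 CPM (3.69 to 4.31), detected in 7.48% of cells. Of the BH3-only members, Bbc3 (PUMA; chromosome 7, 16308393 to 16318205) was at 27.4 CPM (26.6 to 28.2), Bcl2l11 (BIM) at 12.4 CPM (11.8 to 12.9) and Pmaip1 (NOXA) at 7.07 CPM (6.66 to 7.49). The intervals of Bcl2l1 and Bcl2a1d overlapped, and all other neighbours in the order by CPM were apart by more than counting error.

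The order depends on whether levels are set per length, and the labels do not state which part of the transcript was read. Per kilobase of exon, Bax stood at 297 CPM per kb (295 to 299), Bcl2a1b at 91.4 CPM per kb and Mcl1 at 40.02 CPM per kb (39.5 to 40.6). Bak1, at 39.8 CPM per kb (39.2 to 40.5), did not differ from Mcl1 beyond counting error on that scale. Bcl2a1d followed at 29.8 and Bbc3 at 12.9 CPM per kb. Bcl2l1 stood at 5.37, Pmaip1 at 2.59, Bcl2l11 at 1.54 and Bcl2 at 0.436 CPM per kb. On this scale 6 members reached 10. Of all counts on the members, 64.3% fell on the 2 effectors, 30.3% on the 5 anti-apoptotic genes and 5.35% on the 3 BH3-only genes.

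**Figure D1:**
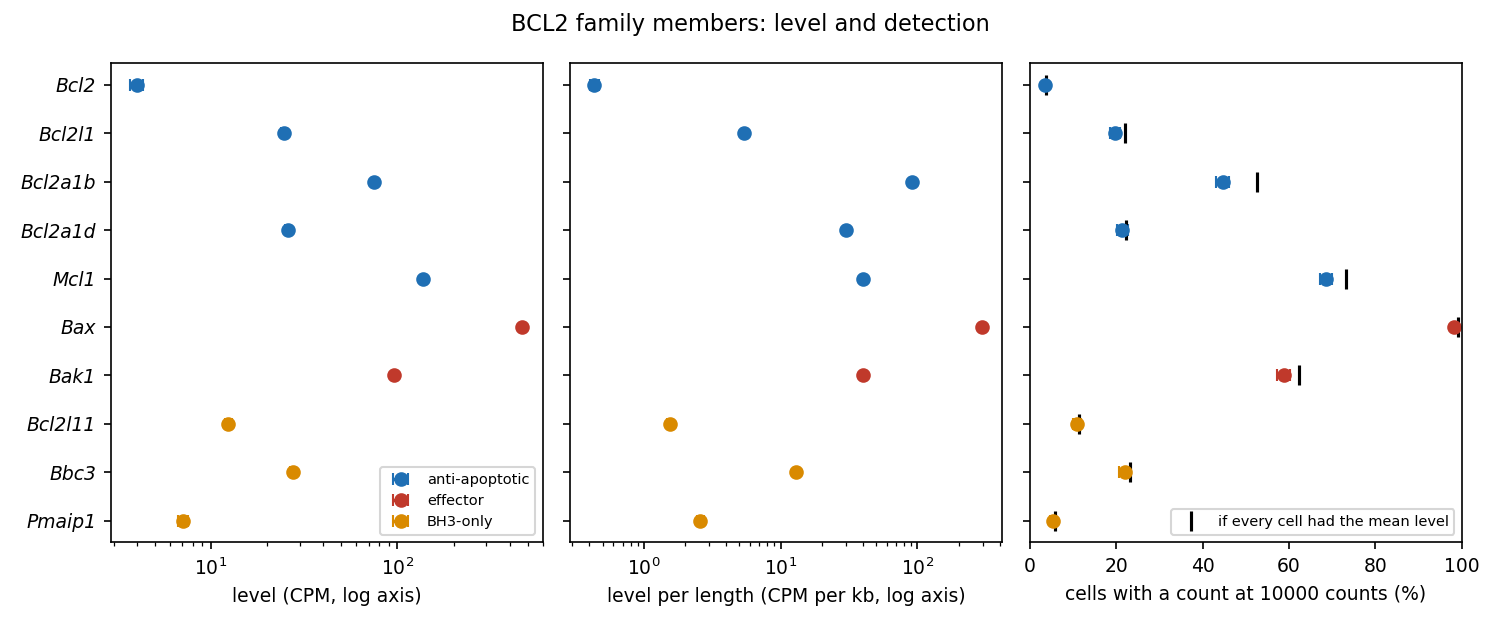
Level of each member in CPM (left, log axis) and in CPM per kilobase of exon (middle, log axis), and the share of 4312 cells with a count after thinning to 10000 counts (right, %). Points are values of 1 sample, bars are exact 95% counting intervals, black ticks are the share if every cell had the mean level, and Bax is highest in all 3 panels.

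Detection of the members differed widely with depth, for which the cells were parted into 5 classes of like size. In the shallowest class (1001 to 4046 counts), Bax was detected in 58.0% of cells, Mcl1 in 23.9% and Bcl2 in 0.815%. In the deepest class (40719 to 192369 counts), Bax was detected in 100% of cells, Mcl1 in 99.1%, Bak1 in 97.9% and Bcl2 in 19.8%. Levels of Bax and Mcl1 differed far less. Bax was at 448 CPM in the deepest class and 485 CPM in the shallowest (ratio 0.926, 0.877 to 0.977), and Mcl1 at 144.7 and 146.2 CPM (ratio 0.990, 0.898 to 1.09). Mcl1 was not level between these ends. From the second-shallowest class on, it stood at 120.8, 119.7 (115 to 124), 134.2 and, in the deepest, 144.7 CPM (142 to 147). Pmaip1 had a ratio of 1.39 with an interval of 0.860 to 2.40, which rests on 17 counts in the shallowest class. From the second-shallowest to the deepest class it stood at 4.55 CPM (3.35 to 6.06), 5.65 CPM (4.73 to 6.70), 6.19 CPM (5.46 to 6.98) and 8.29 CPM (7.67 to 8.93), so that in these 4 classes it was higher with depth and the deepest lay clear of the other 3. Bcl2 was also higher with depth there, at 2.62, 3.12, 3.66 and 4.55 CPM, with overlapping intervals of neighbouring classes. A gene was counted as higher when its level was at least 25% above that of the class compared with it, and as lower when it was at least 20% below. By this rule 1 member, Pmaip1, was higher in the deepest class and none was lower, against 5.59% of genes at 10 CPM or more higher and 13.5% lower. Pmaip1 itself is below 10 CPM and outside that background.

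Uneven spread over cells puts the share below the value for a constant level. After thinning all 10 members lay below it, by little for Bcl2 (3.59% against 3.66%). How many of all genes do so was not counted. Bcl2a1b was detected in 86.0% of the deepest cells, where the library mean in every cell would give 98.1%, and in 58.4% of cells of the middle class, against 71.6%. Bcl2l1 was found in 61.6% of the deepest cells, against 75.2% at a constant level, and Bbc3 in 68.3%, against 78.7%. For Bax the share was 92.4% in cells of 4048 to 11795 counts, against 95.5%. Once the 4312 cells with at least 10000 counts were thinned to that number, Bax was detected in 98.2% of cells, Mcl1 in 68.6%, Bak1 in 58.8% and Bcl2a1b in 44.7% (43.2 to 46.2%, with 52.6% at a constant level). The other 6 members lay between 3.59% (Bcl2) and 22.0% (Bbc3). Thus 4 of 10 members passed 25% of cells, as did 16.2% of all genes and 48.7% of genes at 10 CPM or more. The variance of thinned counts divided by their mean, which is 1 for pure counting error, was 1.65 for Bcl2a1b, 1.34 for Bax, 1.33 for Mcl1, 1.29 for Bcl2l1 and 1.28 for Bak1. For 6450 genes at 10 CPM or more with a thinned mean of at least 0.1, the median was 1.13 and the upper quartile 1.21. The value was 1.08 for Bcl2a1d and 1.05 for Bcl2. At an equal relative spread between cells this value is larger for a gene with a higher mean. Thinned means ran from 0.0373 for Bcl2, which is below 0.1, through 0.249 for Bcl2l1 to 4.79 for Bax. The order of these values is therefore no ranking of the members by unevenness.

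**Figure D2:**
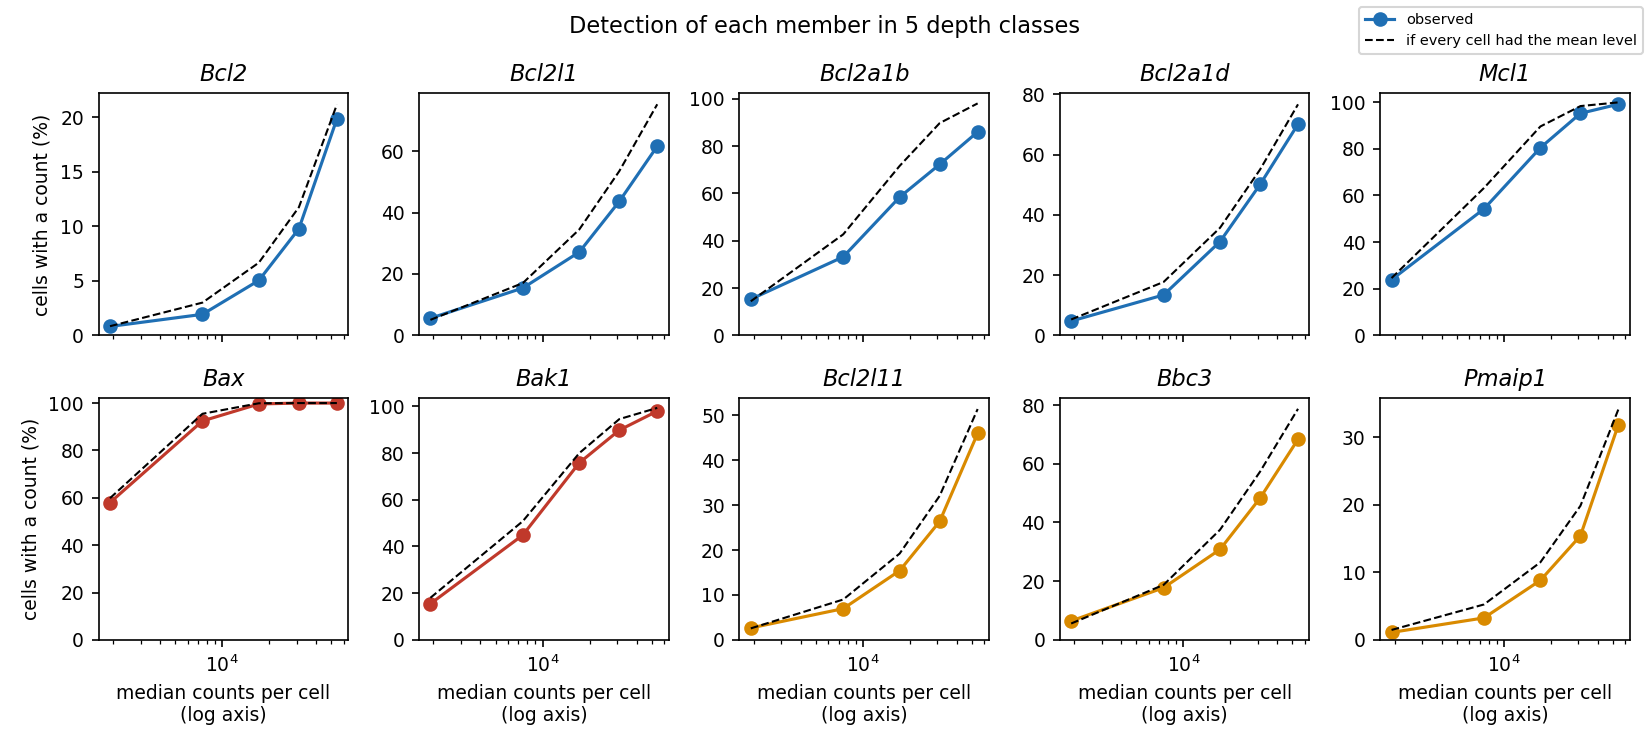
Share of cells with a count of each member (vertical axis, %) in 5 depth classes against their median counts per cell (horizontal, log axis); points are observed shares, and dashed lines the shares if every cell had the library mean. Bcl2a1b and Bcl2l1 fall well below the dashed line in the deepest class, at 86.0% and 61.6%.

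Most thinned cells held transcripts of more than 1 role. A median of 3 members had a count, 3 of 4312 cells had none, and no cell had 8 or more, which the sparse thinned counts limit. At least 1 effector gene had a count in 99.2% of cells, at least 1 anti-apoptotic gene in 88.2% and at least 1 BH3-only gene in 34.2% (32.8 to 35.7%). All 3 roles were seen together in 30.2% of cells.

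Between members, co-variation over cells was weak. Over 45 pairs in the 4312 thinned cells, Pearson's r of log counts ran from -0.045 to 0.14 with a median of 0.0051. The highest was that of Bcl2a1b with Bcl2a1d, found together in 513 cells where independence would give 412.7, and these are the copies among which reads may be shared. Bcl2l1 and Mcl1 followed with r = 0.07. These cells share 1 library and 1 depth, and sparse counts hold any r near 0.

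The genes most like each member over the thinned cells differed by member, though every r was low. Among 6648 genes at 10 CPM or more outside the members, Bcl2l1 was most like the lysosomal protease genes Ctsb (r = 0.21) and Ctsd (0.19) and the complement receptor gene C3ar1 (0.19). Bcl2a1b was most like the ferritin gene Fth1 (0.22), the fatty acid binding protein gene Fabp5 (0.19) and Ctsb (0.18), and Bcl2a1d like Bcl2a1a (0.16), Fth1 (0.11) and Ctsl (0.10). Mcl1 was most like Vim (0.19), Actb (0.18) and Ctss (0.17). Bax was most like Rps27l (0.19), a p53-responsive ribosomal protein homologue, Rpl19 (0.16) and Ppia (0.16). For Bbc3 they were Top2a (0.11), Mthfd2 (0.10) and Hist1h1e (0.10). For Bak1 (Gphn, Jarid2 and Tmtc2) and Bcl2l11 (Lyn, Tpr and Pabpc1), no r exceeded 0.09.

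Across cells sorted by their Myc count, the A1 gene Bcl2a1b and, by less, the effector Bax were lower beyond counting error. The other 8 members had intervals that include no difference. Whether Myc counts stem from the c-Myc used for reprogramming, from the cells' own gene or from both cannot be told from these counts. At 10000 counts per cell, 321 cells had 2 or more Myc counts, 912 had 1 and 3079 had 0. The 2439 cells below 10000 counts are not in these classes. Over all cells kept, Myc was at 61.8 CPM in the shallowest depth class and 43.1 CPM in the deepest (ratio 0.697, 0.599 to 0.815). The depth classes between stood at 34.4 to 38.5 CPM. Bcl2a1b stood at 77.0, 71.3 and 60.4 CPM with 0, 1 and 2 or more Myc counts, which gives a log2 ratio of the highest to the lowest class of -0.35 (-0.57 to -0.14). Bax was at 439 CPM (417 to 463) with 2 or more and 486 CPM (478 to 494) with 0 Myc counts, a log2 ratio of -0.15 (-0.23 to -0.07). Bcl2a1d was at 20.9 CPM with 2 or more and 25.3 CPM with 0, with an interval that includes no difference (-0.66 to 0.08). Bcl2l11 was at 14.6 CPM with 2 or more and 11.2 CPM with 0 (log2 ratio 0.38, -0.09 to 0.82), and at -0.0066 with a second random thinning. Bbc3, Pmaip1, Bak1, Mcl1, Bcl2l1 and Bcl2 had intervals on both sides of 0.

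By the rule of 25% higher or 20% lower, 1 of 10 members (Bcl2l11) was higher and 1 (Bcl2a1b) lower with 2 or more Myc counts than with 0, against 17.5% of 6655 genes higher and 4.87% lower. With other settings, 0 to 2 members were higher and 0 to 4 lower, not always the same members, with 4 lower among cells of 20000 to 40000 counts. The members' median log2 ratio was -0.03, and that of all these genes 0.07. As a measure of what else differed between the classes, 10 of 20 Myc target genes were higher and none lower, among them Ncl at 2649 CPM against 1863 CPM. Of the macrophage markers, 7 of 16 were lower and none higher, among them the complement genes C1qa, C1qb and C1qc and, with the lowest log2 ratio of the list (-1.09), Ms4a7. The other 9 did not pass the rule, and 4 of these had a log2 ratio above 0, up to 0.25 for Cx3cr1, so that Bcl2a1b was lower together with some of the markers and not with others. Cells with at least 5 of 20 G2 and M phase genes made up 71.3% of the highest and 62.7% of the lowest Myc class. All cells of the highest and lowest class had a median depth before thinning of 34233 and 28576 counts. Within cells of at least 5 G2 and M phase genes, the log2 ratio of Bcl2a1b was -0.36, and it was -0.30 in the remaining cells. The part of the other differences in the result was not tested. Pearson's r with Myc ran from -0.04 (Bax) to 0.04 (Bcl2l11).

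**Figure D3:**
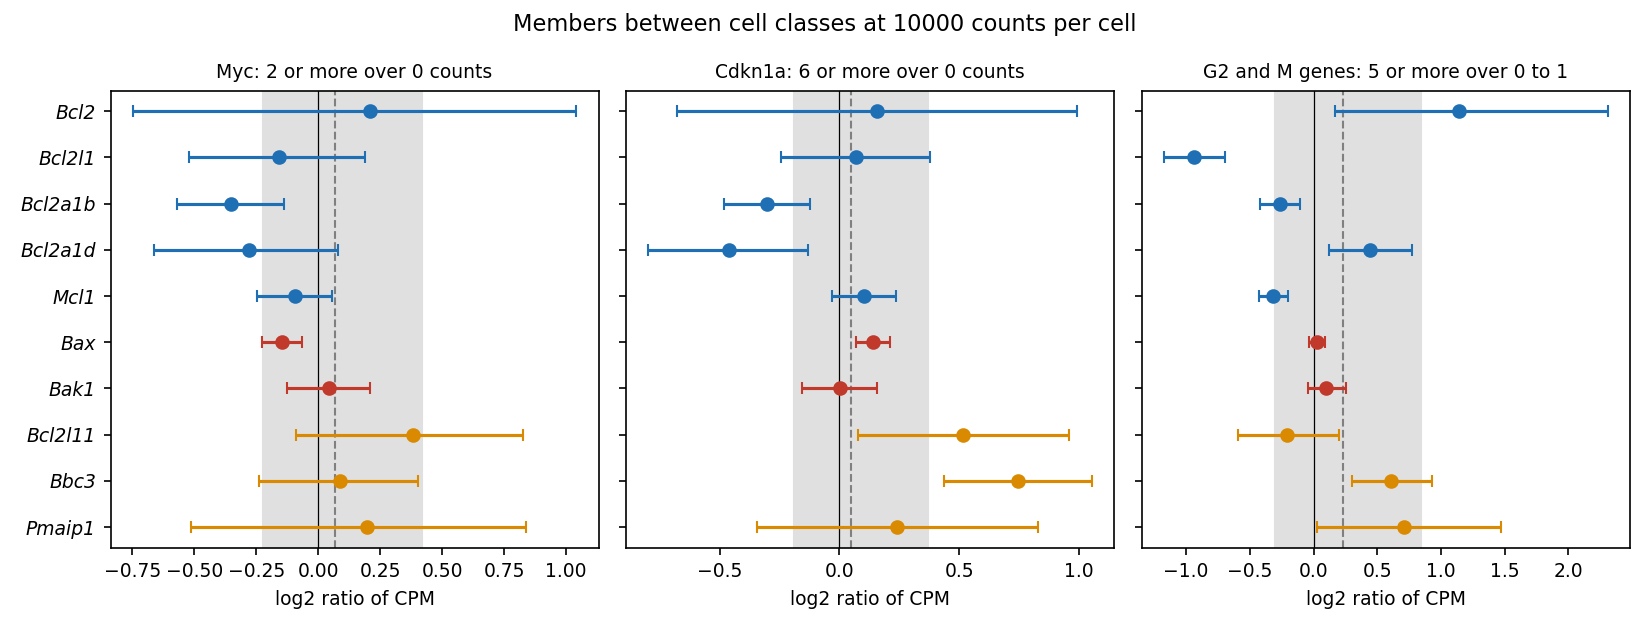
Log2 ratio of CPM (horizontal) of each member in the highest over the lowest class of cells by Myc count (left), Cdkn1a count (middle) and number of G2 and M phase genes (right), at 10000 counts per cell, with 95% counting intervals. The grey band spans the 10th to 90th percentiles of genes at 10 CPM or more and the dashed line is their median; Bbc3 lies above the band for Cdkn1a, at 0.74.

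Over cells sorted by Cdkn1a, the BH3-only gene Bbc3 was higher with each class. At 10000 counts per cell there were 714 cells with 0, 1611 with 1 to 2, 1321 with 3 to 5 and 666 with 6 or more Cdkn1a counts. Bbc3 stood at 20.4 CPM (17.3 to 24.0), 23.1 CPM (20.8 to 25.6), 29.9 CPM (27.0 to 33.0) and 34.2 CPM (29.9 to 39.0) in this order. Its log2 ratio of the highest to the lowest class was 0.74 (0.44 to 1.05), at the 99.2 percentile of genes at 10 CPM or more. It was detected in 26.9% of the highest class and in 17.8% of the lowest. The intervals of neighbouring classes overlapped, except those of 1 to 2 and 3 to 5 counts. In cells with 5 or more of 20 G2 and M phase genes the log2 ratio was 0.77, and in the remaining cells it was 0.31. Bbc3 also had the highest r with Cdkn1a of all members, 0.08.

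The effector Bax differed less. It was at 453, 469, 495 and 499 CPM from the lowest to the highest Cdkn1a class, a log2 ratio of 0.14 (0.07 to 0.21) beside a median of 0.05 over all genes. Bak1 was at 97.6 CPM with 6 or more and 97.5 CPM with 0 Cdkn1a counts, a log2 ratio of 0.0018 with an interval of -0.15 to 0.16.

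Bcl2l11 was at 15.6 CPM with 6 or more and 10.9 CPM with 0 Cdkn1a counts (log2 ratio 0.52, 0.08 to 0.96), with 11.9 and 11.1 CPM in the classes between. At 5000 counts per cell, where 148 cells had 6 or more, its log2 ratio was -0.22. The A1 genes were lower. Bcl2a1b was at 67.9 CPM with 6 or more and 83.8 CPM with 0 (log2 ratio -0.30, -0.48 to -0.12), though at -0.02 among cells of 20000 to 40000 counts. Bcl2a1d was at 19.2 CPM with 6 or more and 26.5 CPM with 0 (log2 ratio -0.46, -0.80 to -0.13), and at 0.42 with 5000 counts per cell. Mcl1, Bcl2l1, Bcl2 and Pmaip1 had intervals that include no difference.

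By the same rule, 2 of 10 members (Bbc3 and Bcl2l11) were higher and 1 (Bcl2a1d) lower with 6 or more Cdkn1a counts, against 12.9% of 6655 genes higher and 2.58% lower. Among cells whose barcode name ends in N2 or a higher number, 5 were higher and 0 lower. The members' median log2 ratio was 0.12. Of 9 genes of the p53 axis at 10 CPM or more, 8 were higher and none lower, with a median of 0.64. Mdm2, which encodes the ubiquitin ligase for p53, was at 27.0 CPM with 6 or more and 11.9 CPM with 0 (log2 ratio 1.18), and Phlda3 at 86.6 and 40.5 CPM (1.10). Trp53 itself was at 97.8 and 97.5 CPM. Foxo3, a transcription factor known to act on Bcl2l11 and Bbc3, was at 14.9 and 7.70 CPM. Of the 20 G2 and M phase genes, 13 were higher. Cells with at least 5 of them made up 71.6% of the highest and 61.8% of the lowest class. Over all cells of these classes, median depth before thinning was 34185 and 26682 counts. Myc was at 47.4 and 36.8 CPM. Apart from the values by G2 and M phase genes given for Bbc3, the part of these in the result was not tested.

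**Figure D4:**
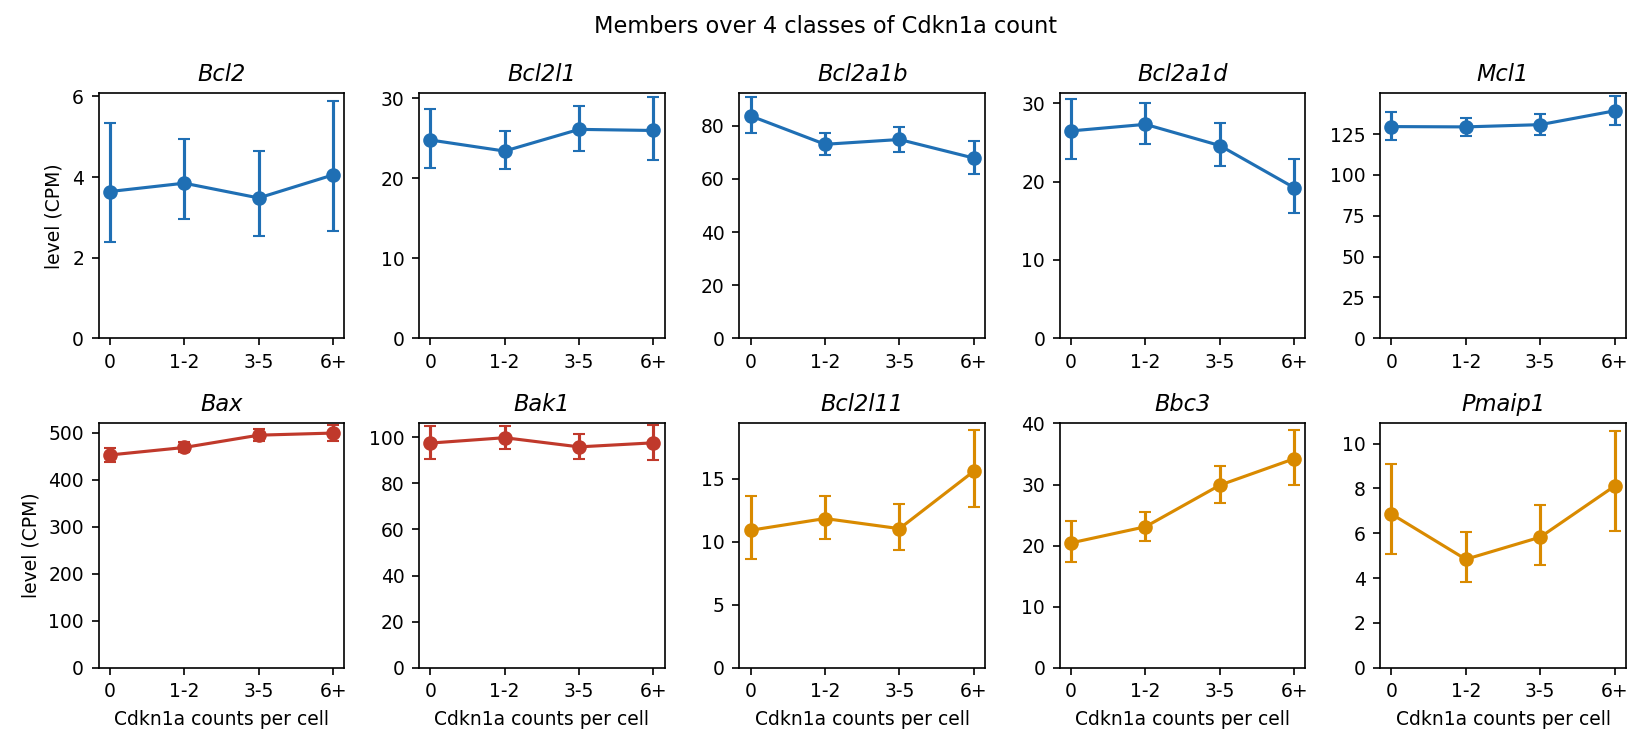
Level of each member (vertical, CPM) in 4 classes of cells by Cdkn1a count at 10000 counts per cell (horizontal, lowest class on the left), with exact 95% Poisson intervals. Bbc3 is higher with each class, at 20.4, 23.1, 29.9 and 34.2 CPM, and Bak1 stays between 95.8 and 99.8 CPM.

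Cells were also parted by how many of 20 G2 and M phase genes they held, a comparison added after the first results. Bcl2l1 was at 21.6 CPM (19.9 to 23.4) in 2781 cells with 5 or more and at 41.4 CPM (35.7 to 47.6) in 469 cells with 0 to 1, a log2 ratio of -0.94 (-1.17 to -0.70). Mcl1 was at 128 and 159.9 CPM (-0.32, -0.43 to -0.20). In the other direction, Bbc3 was at 30.6 and 20.04 CPM (0.61, 0.30 to 0.93). Bax, at 477 and 468 CPM, had an interval that includes no difference (-0.04 to 0.09). By the same rule, 4 of 10 members were higher (Bcl2, Bcl2a1d, Bbc3 and Pmaip1) and 1 lower (Bcl2l1). Of all genes at 10 CPM or more, 41.7% were higher and 9.18% lower. Bcl2 and Pmaip1 are below 10 CPM and outside that background. Of the 8 members at 10 CPM or more, only Bcl2a1d and Bbc3 were higher. Here 14 of 16 macrophage markers were lower and none higher, and Bcl2l1 was lower beside them.

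The members were last set over clusters, which were made without them, without Myc and Cdkn1a and without any list gene. Clusters 1 to 7 are described here, since cells of clusters 8 and 9 were shallow. Cluster 1 was led by 1700034P13Rik, Bc1 and Prtn3, cluster 2 by Hist1h1b and other histone genes, cluster 3 by Ms4a7, Folr2 and Ifit3, and cluster 4 by Camk1d and Tmtc2. Cluster 5 was led by mt-Nd5 and Pus3, cluster 6 by Hist1h4h and other H4 genes, and cluster 7 by Malat1 and Kcnq1ot1. Cluster 3 had the highest summed level of the 16 macrophage markers, 19234 CPM, against 11671 to 14420 CPM in the other 6.

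Of the 5 anti-apoptotic members, 3 were highest in cluster 3. Bcl2l1 was at 44.3 CPM (41.7 to 46.9) there and between 16.2 CPM (cluster 1) and 25.8 CPM (cluster 7) in the other 6. Mcl1 reached 177.9 CPM (173 to 183) in cluster 3 and 158.9 CPM in cluster 7, and cluster 6 was lowest with 76.1 CPM (70.9 to 81.5). Bcl2a1b was at 101 CPM (97.4 to 105) in cluster 3 and lowest in cluster 4, at 46.8 CPM (43.6 to 50.2), the cluster of these 7 with the most Myc, 64.2 CPM. Cluster 1, with the least Myc (22.3 CPM), had Bcl2a1b at 69.4 CPM, and cluster 5, with Myc at 38.0 CPM, had it at 77.7 CPM. Bbc3, by contrast, was lowest in cluster 3 at 18.3 CPM (16.7 to 20.05) and highest in cluster 2 at 37.5 CPM (35.7 to 39.5).

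Bcl2, the least abundant member, was at 8.28 CPM (7.10 to 9.60) in cluster 7 and between 1.91 and 4.01 CPM in the other 6, with no interval reaching that of cluster 7. Pmaip1 was lowest in cluster 6 with 1.58 CPM (0.922 to 2.53), and clusters 7 and 5 stood at 9.93 and 9.57 CPM. Bcl2l11 was at 5.96 CPM in cluster 6 and 7.16 CPM in cluster 1, and between 12.9 and 14.0 CPM in the other 5, which overlapped.

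The effectors varied least. Bax ran from 428 CPM in cluster 4 to 573 CPM in cluster 1, a ratio of 1.34 (1.30 to 1.38), and Bak1 from 79.4 CPM in cluster 6 to 126 CPM in cluster 4. For 7 of 10 members the highest of these 7 clusters was at least 2-fold above the lowest, against 47.0% of genes at 10 CPM or more. Bax, Bak1 and Bcl2a1d were the exceptions, and Bcl2 and Pmaip1, among the 7, are below 10 CPM and outside that background. Over all 9 clusters it was 10 of 10, against 89.8%. Median depth per cell ran from 6035 counts in cluster 1 to 37563 in cluster 2, and its part in these differences was not tested.

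**Figure D5:**
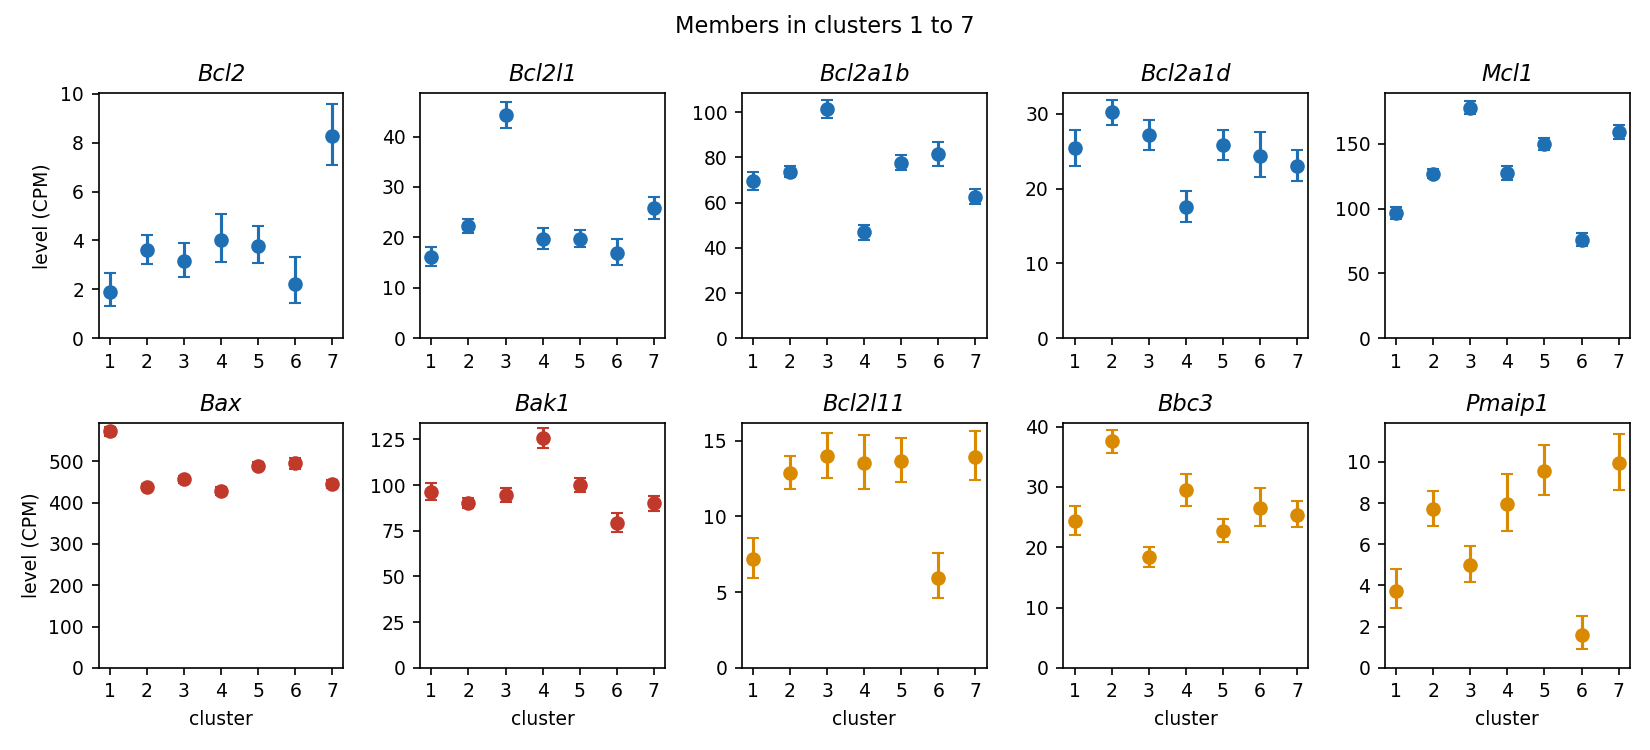
Level of each member (vertical, CPM, from 0) in clusters 1 to 7 (horizontal) with exact 95% Poisson intervals. Bcl2l1, Mcl1 and Bcl2a1b are highest in cluster 3, at 44.3, 177.9 and 101 CPM, Bcl2 in cluster 7 at 8.28 CPM, and Bax spans 428 to 573 CPM.

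Other genes of the mitochondrial pathway were measured beside the members. Of 16 further BCL2 family genes, 7 reached 10 CPM, led by the BH3-only gene Bad at 57.4 CPM, Bnip3l at 45.2 CPM and Bid, whose product links death receptors to mitochondria, at 38.04 CPM, while Bcl2l10 and Hrk, named after their values were seen, had 1 count each in all cells kept. With 6 or more against 0 Cdkn1a counts, 1 of these 7 was lower (Bcl2a1a) and none higher, and with 2 or more against 0 Myc counts 1 was lower (Bnip3, log2 ratio -0.59). Of 13 apoptosome and caspase genes, 8 reached 10 CPM, with cytochrome c (Cycs) at 328 CPM, Htra2 at 108 CPM and Aifm1 at 44.1 CPM. None of the 8 passed the rule between Myc classes, and 1, Endog, was lower between Cdkn1a classes. The caspase inhibitor genes Birc6 (45.4 CPM), Cflar (21.0 CPM) and Xiap (17.1 CPM) led a list of 8, of which 4 reached 10 CPM and 3 of those (Birc6, Xiap and Birc3) were higher with Myc, beside 17.5% of all genes at 10 CPM or more. Of 4 genes that govern MCL1 turnover, 3 reached 10 CPM, with Huwe1 highest at 55.8 CPM. With Myc, 2 of these 3 were higher, Huwe1 at a log2 ratio of 0.36 and Fbxw7 at 0.37. Among 9 NF-kB genes Rela (34.8 CPM), Nfkbia (31.4 CPM) and Nfkb1 (31.02 CPM) reached 10 CPM, and none of these 3 passed the rule for Myc or Cdkn1a.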

How the data were processed

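The deposited matrix holds raw whole counts for each gene in each barcode, and its header names PISA 0.12. Cell Ranger and mm10 are named with no role per the submitters' processing notes. How cells were called, which annotation was used, how reads that match several genes were treated and whether molecular identifiers were collapsed is not given in these sources.

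A barcode was used as a cell if 500 or more genes had a count and mitochondrial genes took no more than 15%, which left out 86 barcodes. No doublet caller was run, and doublets were left in. CPM and exact Poisson intervals came from summed counts, shares have Clopper-Pearson intervals, and ratios of summed counts an exact conditional interval. For shares, classes and correlations, cells were thinned without replacement to 10000 counts, which left out 2439 shallower cells. A gene counted as higher at 25% above and as lower at 20% below the lowest class, and shares over all genes were taken at 10 CPM or more. Bcl2 and Pmaip1, among the 10 members counted, are therefore outside those shares. Exon lengths and gene positions are from GENCODE M21 (GRCm38), promoters from RefSeq (GRCm38.p6), with start sites for 9 members used.

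Clusters used scanpy 1.11.5 and igraph 0.11.9 (2000 variable genes, 30 components, 15 neighbours, Leiden resolution 0.5). Members, classes and gene lists were chosen with earlier results of these data known, and the classes by G2 and M phase genes were added after the first results here. The rule for named genes took all members, the 3 most alike genes for each member at 10 CPM or more, the 3 highest genes of a list and the 2 that differed most, not all printed. Bcl2l10 and Hrk fall outside that rule. Ratios and their intervals were tested on simulated Poisson counts, which hold no spread between cells. Thinning was tested on deposited counts, where only the total per cell was checked.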

Additional observations from a re-analysis of the deposited data

How the results depend on the processing

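The number of members at 10 CPM or more stayed between 6 and 9 under 5 alternatives, where the 6 was counted at 10 CPM per kb, a different unit. The number past 25% of cells was 4 at 5000 counts and 1 at 1900. The counts of members past 25% higher or 20% lower are small and moved by 1 to 3 genes. An unchanged count could rest on another member. The 1 higher with Myc was Pmaip1 at 5000 counts (log2 ratio 0.67, with Bcl2l11 at 0.09). Without the deepest 5% of cells it was Bcl2 (0.35, with Bcl2l11 at 0.32, just short of the rule). The 1 lower with Cdkn1a was Bcl2 under a second thinning (-0.88, with Bcl2a1d at -0.31). Among cells of 20000 to 40000 counts it was Pmaip1 (-0.94, with Bcl2a1d at -0.20). Higher with Myc (1 as reported) were 2 under a second thinning, 0 without cells of 5 or more G2 and M phase genes, 0 at 1.5-fold and 2 within those cells. Lower with Myc (1) were 3 at 5000 counts, 2 without those cells, 2 without the deepest 5%, 0 at 1.5-fold, 2 with the barcode suffix N2 or higher and 4 at 20000 to 40000 counts. Higher with Cdkn1a (2) were 3 at 5000 counts, 3 under a second thinning, 3 within those cells, 1 at 1.5-fold and 5 with the suffix. Lower with Cdkn1a (1) were 2 without those cells, 2 without the deepest 5%, 2 without ribosomal protein, mitochondrial, Gm42418 and AY036118 counts, 0 at 1.5-fold and 0 with the suffix. The subsets by suffix, depth band and within G2 and M phase cells were chosen after seeing the data. Of 159 log2 ratios under alternatives, 22 had the other sign, over 12 of 20 ratios. Those of members counted as higher or lower were Bcl2l11 with Myc at a second thinning (-0.0066, against 0.38 as reported), and Bcl2l11 (-0.22) and Bcl2a1d (0.42) with Cdkn1a at 5000 counts. The other 19 were of Bcl2, Bcl2l1, Mcl1, Bak1, Bbc3 and Pmaip1, whose reported intervals include no difference, down to -0.88 for Bcl2 and -0.61 for Pmaip1 with Myc, and -0.88 for Bcl2 and -0.94 for Pmaip1 with Cdkn1a. The causes were not tested. At 5000 counts, Bcl2 had no log2 ratio for Cdkn1a, since a class had 0 counts. Bbc3 with Cdkn1a kept a positive log2 ratio in each of the 8 alternatives, from 0.31 to 0.82. The 0.31, without cells of 5 or more G2 and M phase genes, does not pass the rule of 25% higher. The 2 members higher in that setting were Bcl2 (0.53) and Bcl2l11 (0.65). No paired analysis was possible because the matrix holds 1 sample. Depth limits Bcl2 and Pmaip1 most, with 640 and 1133 counts in all.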

Other observations

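Clusters 8 and 9 held 266 and 85 cells with median depths of 2265 and 2351 counts, under the median of all cells divided by 3. Cluster 9 was led by the noncoding transcripts Gm26917 and Neat1 and had a median mitochondrial share of 4.82%. There Bcl2l11 was at 59.1 CPM (33.8 to 96.0), from 16 counts, and Bax at 118 CPM (80.9 to 167), from 32 counts. In cluster 8, where the mitochondrial share was 0.0554%, Mcl1 was at 209.5 CPM (181 to 242) and Bcl2a1b at 117 CPM (95.7 to 142). Myc was at 303 CPM (241 to 376) in cluster 9, from 82 counts.

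Barcode names end in N and a number, whose meaning is not given in the sources used here. The 3534 cells with 2 or more had a median of 28826 counts, and the 3217 cells with 1 had 8309.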
